A study of Mus musculus with 16 samples.

Results

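The TNF superfamily genes were taken as every gene with a single-symbol probe set whose symbol is Tnf, Fas, Fasl, Cd27, Cd40, Cd40lg, Cd70, Lta or Ltb, or begins with Tnfsf or Tnfrsf and a number. This gave 38 of the 19938 genes with such a probe set, 15 ligands and 23 receptors, each read by 1 probe set. The arrays hold sorted resident macrophages of male C57BL/6 mice in 7 groups: IL-4c-treated Bhlhe40-/- (KO), LysM-Cre+ Bhlhe40fl/fl (LysM) and Bhlhe40+/+ (WT) large peritoneal macrophages (LPM), 2 arrays each; untreated (naive) KO and WT LPM, 3 arrays each; and naive KO and WT alveolar macrophages (AM) from lung digests, 2 arrays each. IL-4c, a complex of interleukin-4 with an antibody that prolongs its action, was injected on days 0 and 2, and the mice were killed on day 4. Bhlhe40 is a basic helix-loop-helix repressor that binds E-box DNA. KO mice lack it in all cells, so the animals around the sorted macrophages were deficient too, whereas LysM-Cre deletes floxed alleles in macrophages, monocytes and neutrophils. The labels give neither age nor the number of mice behind an array. The error behind each p-value is therefore the scatter of these arrays only, and it may be technical.

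TNF superfamily ligands are trimeric proteins, most of them made on the cell surface, that cluster receptors with cysteine-rich extracellular repeats. Receptors with a cytoplasmic death domain, such as Fas and TNF receptor 1 (Tnfrsf1a), can start caspase or kinase-driven cell death, while most of the others recruit TRAF adaptors and activate NF-kB. Decoy receptors bind ligand without a full signalling tail. Macrophages are a main source of TNF, carry both TNF receptors and CD40, and make BAFF (Tnfsf13b), a survival factor for B cells.

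The deposited values are log2 signals after robust multi-array averaging (RMA), in which a difference of 1 is a 2-fold change. Replicate arrays of a group correlated at r = 0.989 to 0.995 across probe sets. Bhlhe40 itself measured 7.53 and 7.75 on KO AM arrays, against 9.57 and 10.07 on WT AM arrays, and 6.79, 6.5 and 7.11 on naive KO LPM arrays, against 8.66, 8.75 and 8.64 on naive WT LPM arrays. After IL-4c it measured 8.01 and 7.9 on KO arrays and 8.75 and 8.83 on the arrays labelled LysM, against 8.77 and 8.99 on WT arrays. No difference in Bhlhe40 was called between the arrays labelled LysM and WT (log2 difference -0.09 ± 0.19 standard error, SE; limma adjusted p = 0.84). The position of the probe set relative to the deleted exons is not known here, and a probe outside them would not check the label. All 9 tested LPM markers (Gata6 and Timd4 among them) were higher in LPM than in AM, with a median log2 difference of 5.99 in WT, and 8 of 9 AM markers (Siglecf and Pparg among them) were lower, with a median of -6.16.

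Of the 38 genes, 20 exceeded their array's median signal on at least 2 arrays and were tested, 5 ligands and 15 receptors. The ligands were Tnf, Tnfsf11 (RANKL), Tnfsf13b, Tnfsf14 (LIGHT) and Tnfsf18 (the ligand of GITR). The receptors were Cd40, Fas, Tnfrsf1a, Tnfrsf1b, Tnfrsf4 (OX40), Tnfrsf11a (RANK), Tnfrsf12a (Fn14), Tnfrsf13b (TACI), Tnfrsf13c (the BAFF receptor), Tnfrsf14 (HVEM), Tnfrsf18 (GITR), Tnfrsf21 (DR6), Tnfrsf22, Tnfrsf23 and Tnfrsf26. Of these, 15 were above the median on all 16 arrays, whereas Tnf was so on 12 arrays, Tnfrsf4 on 7, Tnfrsf18 on 5, Tnfsf14 on 3 and Tnfsf18 on 2. A gene such as Tnfsf18, which passed only through the KO AM arrays, had to differ there from groups below the median.

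The other 18 genes lay between 2.39 and 5.28 on every array, against array medians of 4.79 to 4.93, and were not tested. They were the ligands Cd40lg, Cd70, Fasl, Lta, Ltb, Tnfsf4, Tnfsf8, Tnfsf9, Tnfsf10 (TRAIL) and Tnfsf15, and the receptors Cd27, Tnfrsf8, Tnfrsf9, Tnfrsf10b, Tnfrsf11b, Tnfrsf17, Tnfrsf19 and Tnfrsf25. Several are known mainly from lymphocytes: Cd40lg, Cd27, Cd70, Fasl and Lta are T or B cell genes, and Tnfrsf17 (BCMA) marks plasma cells. Of the 18, 3 passed the median on 1 array each. Ltb reached 5.28 on naive KO LPM replicate 2; Tnfsf9 reached 4.94 on naive WT LPM replicate 2; and Tnfrsf17 reached 4.86 on replicate 2 of the IL-4c arrays labelled LysM. The heat map of all 38 genes shows these dim genes beside the tested ones.

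**Figure D1:**
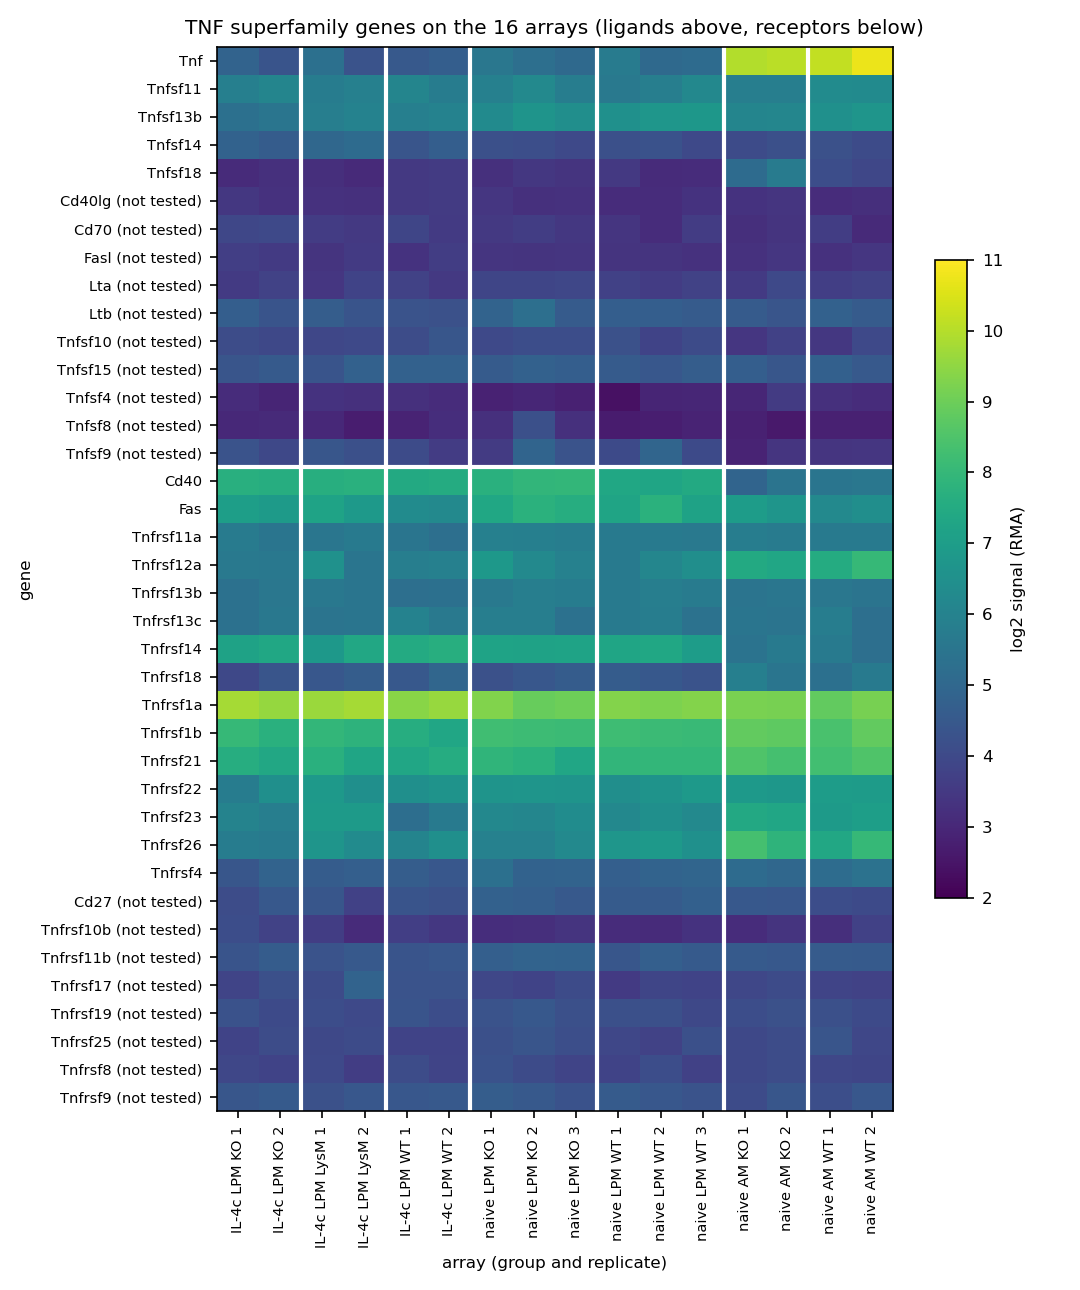
Log2 signal (colour) of the 38 TNF superfamily genes (rows, ligands above receptors) on each of the 16 arrays (columns, grouped by treatment, tissue and genotype). Tnf is at 9.95 or above on the 4 AM arrays and at 5.75 or below on the 12 LPM arrays, and the 18 genes marked as not tested stay at 5.28 or below.

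Differences were tested with limma on the means of the 7 groups, with p-values adjusted by the Benjamini-Hochberg method over all 11634 tested genes; a gene is called where the adjusted p is under 0.05. In 11 comparisons, 17 of the 20 genes were called at least once. Tnfrsf13c, Tnfrsf11a and Tnfsf11, which encode the BAFF receptor and the RANK receptor and ligand pair, were called in none. Each value after ± below is the SE of the log2 difference.

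Whether loss of Bhlhe40 alters the family in alveolar macrophages was asked by KO against WT AM. The ligand Tnfsf18, known for costimulating T cells through GITR, measured 5.16 and 5.74 on the KO arrays, against 4.12 and 3.92 on the WT arrays. Both KO arrays lay above the array medians and both WT arrays below them, so the groups did not overlap. The WT values also lay below 4.48, the level under which 95% of 1035 probe sets for olfactory receptors lie, taken here as background, so no fold is given. The log2 difference was 1.43 ± 0.18 with an adjusted p of 0.0017, and Tnfsf18 was called as well when dim genes were kept in the fit (adjusted p = 0.0016). A fit on the 4 AM arrays alone did not call it (adjusted p = 0.054). Its receptor gene Tnfrsf18 measured 5.87 and 5.5 on KO and 5.33 and 5.68 on WT arrays, which overlapped (difference 0.18, 95% interval -0.27 to 0.62). That Tnfsf18 was 1 of 20 genes called (5%) stands beside 0.12% of all tested genes, 0.0516% higher and 0.0688% lower. This gene entered the test through the KO AM arrays alone.

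No other member was called in AM, and 6 of 20 had an unadjusted p under 0.05. Among these, Tnfsf13b measured 6.09 and 6.13 on KO arrays, against 6.52 and 6.71 on WT arrays. The groups did not overlap, but the difference of -0.50 (interval -0.82 to -0.19) had an adjusted p of 0.54. In all, 11 of 20 members had groups that did not overlap, against 36.4% of all tested genes. The median difference of the 20 genes was 0.01, against 0.05 over all tested genes.

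In naive LPM, KO against WT called none of the 20 genes by limma, against 1.88% of all tested genes (0.533% higher, 1.35% lower); 2 had an unadjusted p under 0.05. One was Cd40, the receptor through which T cells activate macrophages and dendritic cells. It measured 7.7, 7.94 and 7.95 on KO arrays, against 7.37, 7.29 and 7.46 on WT arrays, and these groups did not overlap. The difference was 0.49 (interval 0.21 to 0.77, adjusted p = 0.071), and the gene was called when the arrays were quantile normalised again (0.59, adjusted p = 0.026). The other was Tnfrsf26, an orphan receptor related to the TRAIL decoys, at 5.96, 5.95 and 6.23 on KO arrays, against 6.73, 6.84 and 6.51 on WT arrays. All 3 KO arrays lay below all 3 WT arrays. Its difference of -0.65 had an adjusted p of 0.087, and it was called with array weights (-0.70, adjusted p = 0.035) and in a fit on the naive LPM arrays alone (adjusted p = 0.036). Groups did not overlap for 4 of the 20 genes, against 23% of all tested genes, and the median difference was 0.02 for the members, against -0.03 over all tested genes.

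In IL-4c-treated LPM, KO against WT again called none of the 20 by limma, against 3.63% of all tested genes (2.12% higher, 1.5% lower). An unadjusted p under 0.05 was found for 7 genes, and 13 had groups that did not overlap, against 45.2% of all tested genes. Fas measured 7.03 and 6.89 on KO arrays, against 6.34 and 6.23 on WT arrays, with no overlap (0.68, interval 0.26 to 1.09, adjusted p = 0.066). Tnfsf13b measured 5.33 and 5.51 on KO arrays, against 5.89 and 5.99 on WT arrays, also with no overlap (-0.52, interval -0.84 to -0.21, adjusted p = 0.062). The median difference of the members was 0.06, against -0.02 over all tested genes. The decoy receptor gene Tnfrsf22 was not called, at 5.78 and 6.48 on KO arrays, against 6.49 and 6.62 on WT arrays (-0.42). Without replicate 2 of the IL-4c KO arrays it gave -0.77, and over all alternatives it ran from -0.77 to -0.07.

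The IL-4c arrays labelled LysM differed from WT in 3 of the 20 genes, all higher, which is 15% of them against 8.67% of all tested genes (4.8% higher, 3.87% lower). These mice differ from Bhlhe40+/+ mice by the Cre and the floxed alleles too. Effects of those alleles and of Bhlhe40 deletion cannot be told apart here. Tnfrsf23, a TRAIL decoy receptor of mouse, measured 6.89 on both arrays labelled LysM, against 5.26 and 5.69 on WT arrays. The difference of 1.41 ± 0.16, or 2.67-fold, had an adjusted p of 7.7e-05. Fas, the death receptor for Fas ligand, measured 7.22 and 6.86 on arrays labelled LysM, against 6.34 and 6.23 on WT arrays. Its difference was 0.75 ± 0.19, or 1.69-fold (adjusted p = 0.024). Tnfsf14, a ligand of HVEM and of the lymphotoxin beta receptor, measured 4.99 and 5.13 on arrays labelled LysM, against 4.36 and 4.68 on WT arrays, a difference of 0.54 ± 0.15 (adjusted p = 0.04). Tnfsf14 passed the filter through both arrays labelled LysM and 1 IL-4c KO array, where it stood at 4.82. It was not called when dim genes were kept in the fit (adjusted p = 0.054). That left 2 members called, beside 943 calls over all 19938 genes. For none of these genes did the 2 groups overlap.

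The Tnfrsf23 call was kept whichever array of these groups was left out, with differences of 1.20 to 1.63. Fas was not called without LysM replicate 1 (0.57, adjusted p = 0.24), WT replicate 1 (0.81, 0.065) or WT replicate 2 (0.70, 0.17). Tnfsf14 was not called when any 1 of the 4 arrays was left out (0.38 to 0.70). With array weights neither Fas (adjusted p = 0.061) nor Tnfsf14 (0.068) was called, nor in a fit on the compared arrays alone (0.096 and 0.17), and Tnfsf14 was not called with a variance trend (0.06). The HVEM gene Tnfrsf14 was not called, at 6.8 and 7.4 on arrays labelled LysM, against 7.51 and 7.63 on WT arrays (-0.47). Without LysM replicate 2 it gave -0.77, and over all alternatives it ran from -0.77 to -0.17. Over the members, 11 of 20 had groups that did not overlap, against 49.6% of all tested genes, and the median difference was 0.18, against -0.01 over all tested genes. Immediate early genes, a marker of cell activation during handling, moved beside these results: their mean was 7.97 and 7.54 on arrays labelled LysM, against 7.22 and 7.25 on WT arrays, with 5 of 12 called higher. Their part in the 3 calls was not tested.

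KO against the arrays labelled LysM, both after IL-4c, called none of the 20 by limma. Over all tested genes 0.0172% were called (0% higher, 0.0172% lower), so this comparison made few calls of any kind, and 5 members had an unadjusted p under 0.05. Tnfrsf23 measured 6.03 and 5.84 on KO arrays, against 6.89 and 6.89 on arrays labelled LysM. No KO array reached the level of the arrays labelled LysM, and the difference was -0.95 (interval -1.29 to -0.62, adjusted p = 0.062). Over 13 alternatives this difference ran from -1.05 to -0.86. It was called in 4 of them and not in the other 9. For Fas the difference was -0.08 with an interval of -0.49 to 0.33, which leaves room for a change of either sign. Groups of 6 members did not overlap, against 34% of all tested genes, and the median difference was -0.06 for the members, against -0.01 over all tested genes.

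**Figure D2:**
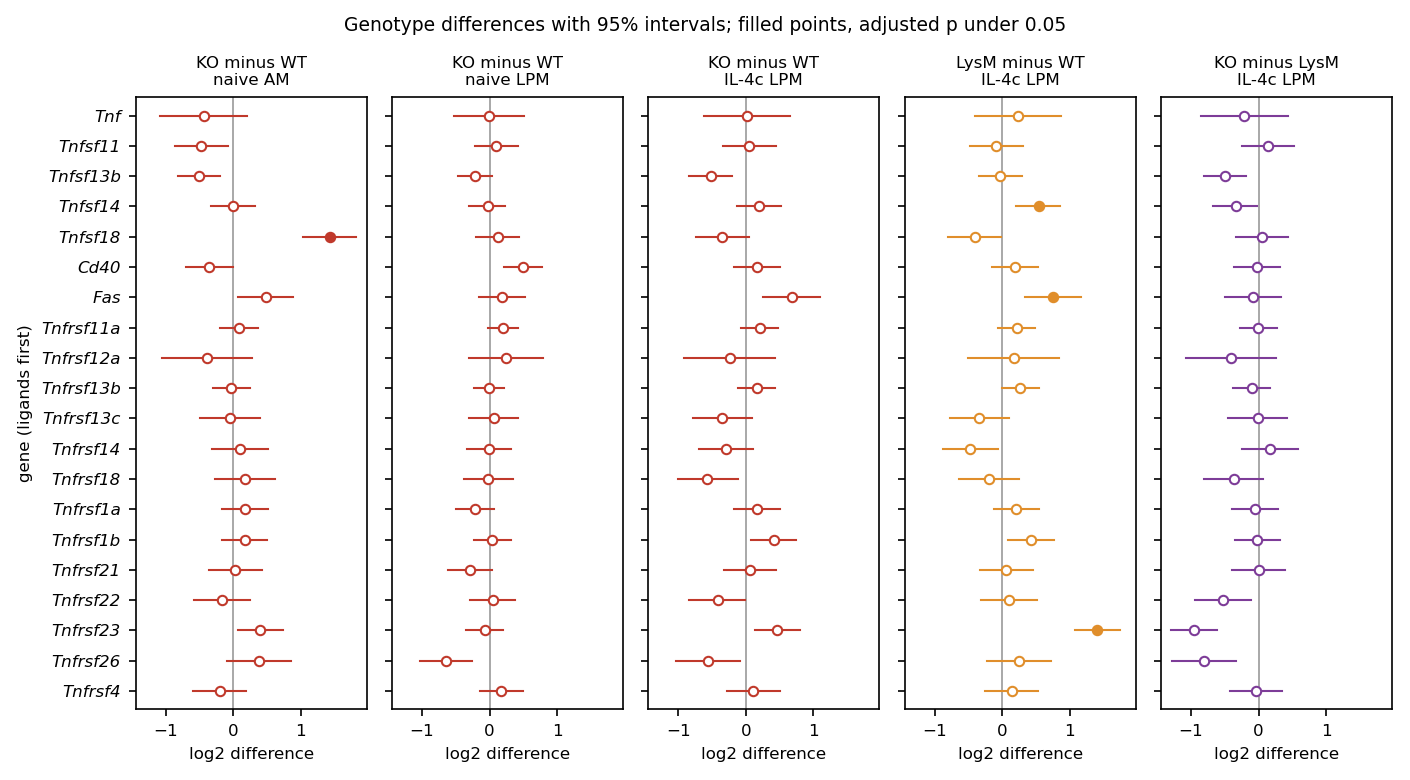
Log2 differences (points) with 95% intervals (lines) of the 20 tested genes, ligands first, in the 5 comparisons between genotypes; filled points have an adjusted p under 0.05. Tnfsf18 at 1.43 in AM and Tnfsf14, Fas and Tnfrsf23 at 0.54, 0.75 and 1.41 on the arrays labelled LysM are the filled points, while KO against WT in LPM has none.

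The IL-4c arrays were compared with those of naive mice, for which the labels give no injection. Effects of IL-4c, of injection and of anything else shared by the IL-4c arrays cannot be told apart. In WT LPM after IL-4c, 7 of the 20 genes fell and 1 rose. That is 40% of them, close to the 41.2% of all tested genes that were called (22% higher, 19.2% lower). With dim genes kept in the fit, 6 of the 38 genes fell and 2 rose, beside 5162 calls over all 19938 genes. Among the ligands, Tnfsf13b, the B cell survival factor BAFF, measured 5.89 and 5.99 after IL-4c, against 6.53, 6.72 and 6.77 in naive WT LPM. It fell by 0.73 ± 0.13 on the log2 scale, or 1.66-fold (adjusted p = 0.00042). Tnf, the founding inflammatory ligand, measured 4.5 and 4.68 after IL-4c, all below the array medians, against 5.75, 5.09 and 5.14 in naive WT LPM. Its fall of 1.66-fold (-0.73 ± 0.27, adjusted p = 0.043) is on a dim signal. Tnfsf14 rose, at 4.36 and 4.68 after IL-4c, against 4.18, 4.28 and 3.99 in naive WT LPM (0.37 ± 0.14, adjusted p = 0.044), all of them below the array medians and the naive values below 4.48. Tnfsf14 passed the filter through IL-4c KO replicate 1 and both arrays labelled LysM, and through no naive array. The IL-4c and naive arrays did not overlap for any of these ligands.

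Receptors made up the rest of the WT response. Fas measured 6.34 and 6.23 after IL-4c, against 7.24, 7.75 and 7.19 in naive WT LPM. It fell 2.15-fold (-1.11 ± 0.18, adjusted p = 0.00013). Tnfrsf23 measured 5.26 and 5.69, against 6.2, 6.49 and 6.23 in naive WT LPM (-0.83 ± 0.14, 1.78-fold lower, adjusted p = 0.00026). These are the largest falls among the receptors, and neither gene overlapped between the groups. Tnfrsf1b, the TNF receptor 2 gene, which binds membrane TNF and has no death domain, measured 7.61 and 7.32, against 8.19, 8.15 and 8.1 in naive WT LPM (-0.68 ± 0.14, 1.61-fold lower, adjusted p = 0.0012). Tnfrsf21, the death-domain receptor DR6, measured 7.32 and 7.56, against 7.91, 7.97 and 7.96 in naive WT LPM (-0.50 ± 0.17, 1.42-fold lower, adjusted p = 0.025). Both sets of IL-4c arrays lay below every naive array. Tnfrsf13b (TACI), a receptor for BAFF and APRIL known mainly from B cells, measured 5.28 and 5.32, against 5.69, 5.84 and 5.74 in naive WT LPM (-0.46 ± 0.12, 1.37-fold lower, adjusted p = 0.0054).

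B cell markers fell in the same arrays. Their mean over 9 genes was 4.3 and 4.2 after IL-4c, against 5.1, 5.01 and 4.99 in naive WT LPM, and 5 of 6 tested markers were called lower (median -1.45). Fewer B cells and less RNA per cell cannot be told apart in such bulk samples, and the part of these cells in the Tnfrsf13b result was not tested. Tnfrsf13c, the BAFF receptor of B cells, was not called (0.21, interval -0.19 to 0.61). Immediate early genes fell as well, with 8 of 12 called lower and means of 7.22 and 7.25 after IL-4c, against 8.55, 8.64 and 8.46 in naive WT LPM. Their part in the Tnf result was not tested. Cd40, which B cells also express, measured 7.46 and 7.53 after IL-4c, against 7.37, 7.29 and 7.46 in naive WT LPM (0.13, interval -0.19 to 0.44).

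In the WT response 3 calls were lost when single arrays were left out. Tnf was not called without naive replicate 1 (-0.52, adjusted p = 0.17), IL-4c replicate 1 (-0.64, 0.19) or IL-4c replicate 2 (-0.82, 0.097). Tnfrsf21 was not called without naive replicate 2 (-0.49, 0.059), naive replicate 3 (-0.50, 0.055) or IL-4c replicate 1 (-0.39, 0.19), nor Tnfsf14 without naive replicate 1 (0.39, 0.073), naive replicate 3 (0.29, 0.15) or IL-4c replicate 2 (0.21, 0.38). The Tnf call was also lost with no filter on dim genes (adjusted p = 0.054), with quantile normalization applied again (0.056) and with each array centred on its median (0.055). The Tnfsf14 call was also lost with no filter (0.059), with a variance trend (0.068), on the compared arrays alone (0.06) and with the replicate block (0.11). Groups did not overlap for 15 of the 20 genes, against 65.2% of all tested genes. The median difference was -0.24, against 0.02 over all tested genes.

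In KO LPM after IL-4c, 3 of the 20 genes fell and 2 rose, or 25%, against 37.3% of all tested genes (21.9% higher, 15.4% lower). When the arrays were quantile normalised again, 7 fell and 2 rose, where calls over all tested genes went from 4342 to 4522. Tnfsf13b measured 5.33 and 5.51 after IL-4c, against 6.29, 6.67 and 6.43 in naive KO LPM, and fell 2.06-fold (-1.04 ± 0.13, adjusted p = 3e-05). Tnfsf14 measured 4.82 and 4.61, against 4.2, 4.17 and 3.98 in naive KO LPM, and rose by 0.60 ± 0.14 (adjusted p = 0.0035), again with naive values below 4.48. The KO array at 4.82 was 1 of the 3 arrays, all after IL-4c, through which Tnfsf14 passed the filter. Neither ligand overlapped between the groups. Fas measured 7.03 and 6.89, against 7.37, 7.74 and 7.6 in naive KO LPM (-0.61 ± 0.18, 1.53-fold lower, adjusted p = 0.013). Tnfrsf1a, the death-domain receptor for soluble TNF, measured 9.79 and 9.56, against 9.3, 8.91 and 9 in naive KO LPM (0.61 ± 0.15, 1.52-fold higher, adjusted p = 0.0042). Here too every IL-4c array lay on 1 side of every naive array. Tnfrsf22, a second TRAIL decoy, measured 5.78 and 6.48, against 6.67, 6.71 and 6.66 in naive KO LPM (-0.55 ± 0.18, 1.47-fold lower, adjusted p = 0.024).

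The calls of Tnfrsf22, Tnfrsf1a and Tnfsf14 were lost without replicate 1 of the IL-4c KO arrays, a fit that leaves 1 array in that group. Tnfrsf22 then gave -0.20, against -0.55 with both arrays. Tnfrsf1a gave 0.49, against 0.61, and Tnfsf14 gave 0.49, against 0.60. The part of the smaller group in these losses was not tested. Fas was not called without IL-4c replicate 2 (-0.54) or naive replicate 2 (-0.52, adjusted p = 0.051). Without that naive array 3 of the 20 genes were called, and calls over all tested genes went from 4342 to 3728. Leaving that array out also ended the Tnfrsf22 call (-0.54, 0.055). Tnfrsf22 was also not called on the compared arrays alone (0.064) or with the replicate block (-0.50, 0.055). Without naive replicate 3, 7 of the 20 genes were called, Tnf (-0.83, 0.046) and Tnfrsf12a (-0.89, 0.033) among them, beside 4081 of all tested genes. Without naive replicate 1 Tnfrsf13b was called (-0.34, 0.05). Tnfrsf4 gave -0.58 without IL-4c replicate 2, against -0.36 with all arrays, and ran up to -0.13 in the other alternatives. Tnf with all arrays measured 4.85 and 4.35 after IL-4c, against 5.58, 5.29 and 5.07 in naive KO LPM (-0.71 ± 0.27, adjusted p = 0.054). Groups did not overlap for 14 members, against 57% of all tested genes, and the median difference was -0.28 for the members, against 0.04 over all tested genes. B cell markers fell in KO too, to means of 4.2 and 4.24, against 5.33, 5.24 and 4.8 in naive KO LPM, with 6 of 6 called lower, and so did 8 of 12 immediate early genes.

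Whether the response to IL-4c differed by genotype was tested by the interaction term, which called none of the 20 genes by limma, against 0.55% of all tested genes (0.404% higher, 0.146% lower). One member had an unadjusted p under 0.05. This was Tnfrsf23, whose response was -0.29 in KO, against -0.83 in WT, an interaction of 0.54 (interval 0.11 to 0.97, adjusted p = 0.26). For Fas the interaction was 0.50 (interval -0.04 to 1.03, adjusted p = 0.42). Genes called in 1 genotype, such as Tnfrsf1a in KO and Tnfrsf1b in WT, are therefore not shown to respond differently in the other.

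**Figure D3:**
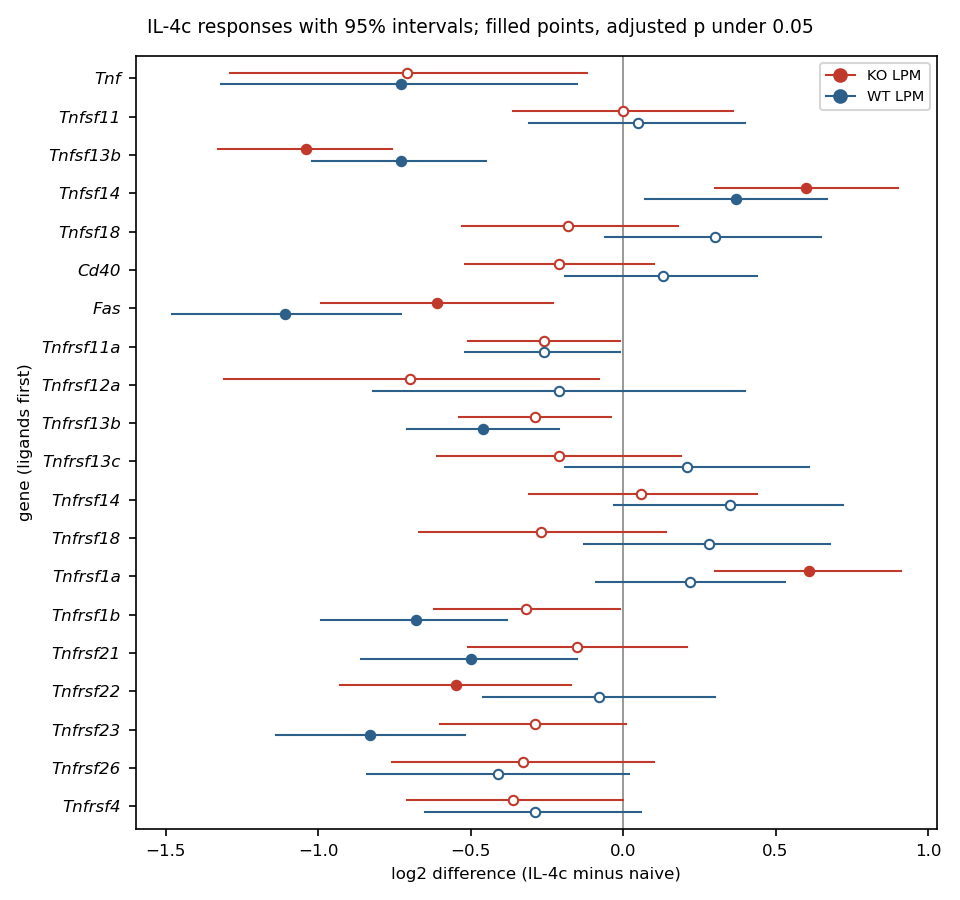
Log2 differences between IL-4c and naive LPM (points) with 95% intervals (lines) in KO (red) and WT (blue) for the 20 tested genes, ligands first; filled points have an adjusted p under 0.05. Tnfsf13b, Tnfsf14 and Fas are filled in both genotypes, and no interaction of genotype with IL-4c was called.

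The members called in both IL-4c responses were 3: Fas, Tnfsf13b and Tnfsf14. Of these, Tnfsf14 entered the test through IL-4c arrays alone, where it was high. The plot of single arrays shows the 3 genes in every group. On the IL-4c arrays labelled LysM, which have no naive counterpart, Tnfsf13b measured 5.85 and 5.98, Fas 7.22 and 6.86, and Tnfsf14 4.99 and 5.13. Tnfsf13b on those arrays overlapped the WT values of 5.89 and 5.99.

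**Figure D4:**
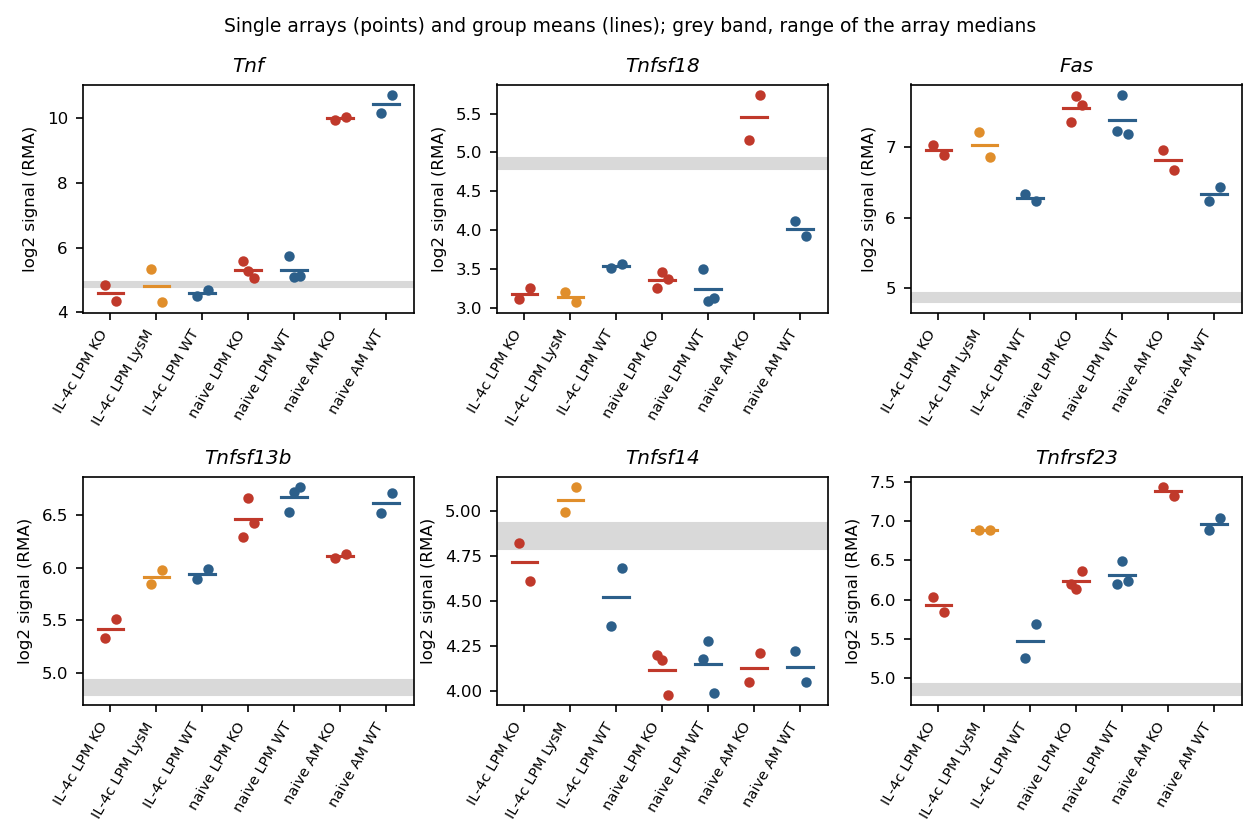
Log2 signal of Tnf, Tnfsf18, Fas, Tnfsf13b, Tnfsf14 and Tnfrsf23 on each array (points), with group means (lines), for the 7 groups; the grey band is the range of array medians, 4.79 to 4.93, and the vertical scales differ and do not start at 0. Tnfsf18 is above the band only on the 2 KO AM arrays, and Tnfrsf23 is at 6.89 on both IL-4c arrays labelled LysM, against 5.26 and 5.69 on IL-4c WT arrays.

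RefSeq windows from 250 bases before to 50 bases after the annotated start were held for 29 of the 38 genes (build GRCm38.p6). They were searched on both strands for CACGTG, the E-box of Bhlhe40-type factors, and for TGANTCA (AP-1 type, with N any base), an NF-kB type motif (GGG and TTTCC with 2 bases between them) and a STAT6 type motif (TTC and GAA with 4 bases between them). The E-box was present in 5 members (Fas, Tnfrsf4, Tnfrsf8, Tnfrsf19 and Tnfrsf21), against 8.09% of the 27025 genes with a window. TGANTCA was present in 5 (Fas, Tnfsf13b, Tnfsf14, Tnfrsf8 and Tnfrsf9), against 8.97%, and the NF-kB type motif in 3 (Ltb, Tnfrsf9 and Tnfrsf25), against 1.89%. The STAT6 type motif was present in 2 (Lta and Tnfsf13b), against 8.01%. The windows of the 3 genes called in both IL-4c responses are shown with that of Tnfsf18, called by genotype in AM; each is written 5′ to 3′ on the strand of the gene, with the matches in capitals. All 3 of the first group hold TGAGTCA, which was seen after their values were known. Tnfsf13b has another window (10006383 to 10006682) from a different annotated start, which overlaps the printed one and is not shown. Relative to the start, its TGAGTCA begins at 39 in the printed window and at -127 in the other. Tnfsf18 holds none of the 4 motifs in its window. A match in a window describes its letters and does not show binding.
Fas, chr19:34290409-34290708, plus strand: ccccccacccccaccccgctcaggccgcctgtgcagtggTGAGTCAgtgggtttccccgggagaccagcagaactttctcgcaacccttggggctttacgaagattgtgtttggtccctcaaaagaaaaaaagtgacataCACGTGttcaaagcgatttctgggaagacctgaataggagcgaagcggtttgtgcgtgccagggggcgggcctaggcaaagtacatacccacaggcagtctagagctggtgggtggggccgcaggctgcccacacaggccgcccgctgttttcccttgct
Tnfsf13b, chr8:10006217-10006516, plus strand: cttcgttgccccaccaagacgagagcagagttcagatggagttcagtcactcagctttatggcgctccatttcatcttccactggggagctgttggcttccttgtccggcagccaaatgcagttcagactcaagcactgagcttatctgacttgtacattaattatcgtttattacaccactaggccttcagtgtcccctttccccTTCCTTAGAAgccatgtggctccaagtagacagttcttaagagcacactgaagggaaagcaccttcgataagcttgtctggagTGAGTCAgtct
Tnfsf14, chr17:57194132-57194431, minus strand: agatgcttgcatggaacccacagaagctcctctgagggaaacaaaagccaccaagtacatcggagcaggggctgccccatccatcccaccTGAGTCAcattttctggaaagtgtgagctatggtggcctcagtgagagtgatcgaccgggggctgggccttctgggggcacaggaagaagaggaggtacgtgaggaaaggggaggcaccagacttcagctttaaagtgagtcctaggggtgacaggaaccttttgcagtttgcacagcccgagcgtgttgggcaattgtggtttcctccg
Tnfsf18, chr1:161494407-161494706, plus strand: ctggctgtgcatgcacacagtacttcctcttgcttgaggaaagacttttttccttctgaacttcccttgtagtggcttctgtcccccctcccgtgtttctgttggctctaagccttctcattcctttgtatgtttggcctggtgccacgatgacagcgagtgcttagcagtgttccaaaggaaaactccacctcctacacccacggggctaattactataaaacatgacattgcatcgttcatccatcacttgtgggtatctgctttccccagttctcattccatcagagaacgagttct

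More members were called between the 2 resident populations than between genotypes. In naive WT, 12 of the 20 genes (60%) differed between LPM and AM, 3 higher and 9 lower in LPM, against 38.3% of all tested genes (21.2% higher, 17.1% lower). In naive KO, 12 again differed, 4 higher and 8 lower in LPM, against 40% of all tested genes (17.3% higher, 22.8% lower). Tnfsf18 and Tnfrsf18, both called lower in LPM in each genotype, passed the filter wholly or mainly through AM arrays. The shares among the 20 genes therefore cannot be read apart from the filter. With dim genes kept in the fit, 12 of the 38 genes were called in WT, beside 4483 calls over all 19938 genes. In KO, 14 of the 38 were called, beside 4707 calls. Groups did not overlap for 14 members in KO, against 61% of all tested genes, and for 17 in WT, against 60.3%. The median difference of the members was -0.09 in KO and -0.37 in WT, against -0.01 and 0.02 over all tested genes.

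Tnf gave the largest difference of the family. It measured 5.58, 5.29 and 5.07 on naive KO LPM arrays, against 9.95 and 10.06 on KO AM arrays (-4.70 ± 0.27, 25.9-fold lower in LPM, adjusted p = 5.9e-10). In WT it measured 5.75, 5.09 and 5.14 on naive LPM arrays, against 10.17 and 10.73 on AM arrays (-5.13 ± 0.27, 34.9-fold lower, adjusted p = 1.9e-10). No LPM array came within 4 log2 units of an AM array of its genotype. The mean of 12 immediate early genes was lower in LPM too, with means of 8.25, 8.11 and 8.27 on KO LPM arrays, against 9.95 and 10 on KO AM arrays, and of 8.55, 8.64 and 8.46 on WT LPM arrays, against 9.74 and 9.91 on WT AM arrays. Of these genes 9 were called lower and 0 higher in KO, and 5 lower and 2 higher (Ier2 and Ier3) in WT. Their part in the Tnf difference was not tested.

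The GITR ligand gene Tnfsf18 was called lower in LPM as well. It measured 3.26, 3.46 and 3.37 on KO LPM arrays, against 5.16 and 5.74 on KO AM arrays (-2.09 ± 0.17, adjusted p = 3.2e-08). On WT arrays it measured 3.5, 3.09 and 3.13 in LPM, against 4.12 and 3.92 in AM (-0.78 ± 0.17, adjusted p = 0.0013). All values of Tnfsf18 but those on the KO AM arrays lay below the background level of 4.48, so the size of these differences is not a measured fold, and the WT difference lies wholly within background. Its receptor gene Tnfrsf18 measured 4.23, 4.44 and 4.63 on KO LPM arrays, against 5.87 and 5.5 on KO AM arrays (-1.25 ± 0.19, adjusted p = 5.1e-05). The WT values of Tnfrsf18 were 4.61, 4.47 and 4.29 in LPM, against 5.33 and 5.68 in AM (-1.05 ± 0.19, adjusted p = 0.00029). Tnfrsf18 did not overlap between LPM and AM in either genotype. It passed the filter through the 4 AM arrays and IL-4c WT replicate 2 (4.98). All its naive LPM values lay below the array medians, and only 4.63 in KO and 4.61 in WT lay above 4.48, so no fold is given.

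In both genotypes 3 receptors were higher in LPM. Cd40 measured 7.7, 7.94 and 7.95 on KO LPM arrays, against 4.9 and 5.46 on KO AM arrays (2.68 ± 0.15, 6.42-fold, adjusted p = 2.7e-10). On WT arrays Cd40 measured 7.37, 7.29 and 7.46 in LPM, against 5.5 and 5.57 in AM (1.83 ± 0.15, 3.56-fold, adjusted p = 3.3e-08). B cell markers were higher in LPM as well, with 4 of 6 tested markers called higher and Cd22 called lower in each genotype. Cd40 stood at 7.46 to 7.71 on the 6 IL-4c LPM arrays, where the B cell marker mean was 4.2 to 4.3, against 4.23 to 4.41 on the 4 AM arrays. Cd22 raised that AM mean, at 7.3 to 7.61, and Bank1 stayed higher on the IL-4c LPM arrays, at 5.43 to 6.35, against 3.56 to 3.91 on the AM arrays. The part of B cells in the Cd40 difference was not tested.

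Tnfrsf14 (HVEM), a receptor for LIGHT and a partner of the inhibitory receptor BTLA, measured 7.21, 7.19 and 7.23 on KO LPM arrays, against 5.44 and 5.72 on KO AM arrays (1.63 ± 0.18, 3.1-fold, adjusted p = 1.1e-06). In WT it measured 7.3, 7.37 and 6.98 in LPM, against 5.66 and 5.3 in AM (1.74 ± 0.18, 3.34-fold, adjusted p = 5.5e-07). The LPM and AM arrays lay well apart in both genotypes. Fas measured 7.37, 7.74 and 7.6 on KO LPM arrays, against 6.96 and 6.68 on KO AM arrays (0.75 ± 0.18, 1.68-fold, adjusted p = 0.0027). Its WT values were 7.24, 7.75 and 7.19 in LPM, against 6.23 and 6.44 in AM (1.05 ± 0.18, 2.08-fold, adjusted p = 0.00015). Without KO AM replicate 2, Fas was not called in KO (0.62, adjusted p = 0.052).

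The remaining receptors called in both genotypes were lower in LPM. Tnfrsf12a (Fn14), the receptor of TWEAK, measured 6.8, 6.24 and 5.94 on KO LPM arrays, against 7.45 and 7.32 on KO AM arrays (-1.06 ± 0.29, 2.08-fold lower, adjusted p = 0.0074). Its WT values were 5.68, 6.13 and 6.43 in LPM, against 7.52 and 8.03 in AM (-1.70 ± 0.29, 3.24-fold lower, adjusted p = 0.00016). Its spread among LPM arrays was wide but did not reach the AM values. Without KO AM replicate 1 the gene was not called in KO (-0.99, adjusted p = 0.06). Tnfrsf1b measured 8.25, 8.18 and 8.14 on KO LPM arrays, against 8.85 and 8.78 on KO AM arrays (-0.63 ± 0.14, 1.54-fold lower, adjusted p = 0.0021). In WT, Tnfrsf1b was at 8.19, 8.15 and 8.1 in LPM, against 8.43 and 8.85 in AM (-0.50 ± 0.14, 1.41-fold lower, adjusted p = 0.011). Without WT AM replicate 2 this fell short of the threshold (-0.29, adjusted p = 0.2).

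Tnfrsf21 (DR6) measured 7.88, 7.75 and 7.33 on KO LPM arrays, against 8.51 and 8.35 on KO AM arrays (-0.77 ± 0.17, 1.71-fold lower, adjusted p = 0.0014). Its WT values were 7.91, 7.97 and 7.96 in LPM, against 8.28 and 8.52 in AM (-0.46 ± 0.17, 1.37-fold lower, adjusted p = 0.042). The LPM arrays were below the AM arrays in each genotype. Tnfrsf4 (OX40), known from activated T cells, was called in WT, at 4.72, 4.85 and 4.94 in LPM, against 5.19 and 5.38 in AM (-0.45 ± 0.17, 1.36-fold lower, adjusted p = 0.044). In KO it measured 5.32, 4.84 and 4.86 in LPM, against 5.16 and 5 in AM, which overlapped (-0.07, interval -0.43 to 0.28). The WT calls of Tnfrsf21 and Tnfrsf4 were both lost when any 1 of the 5 arrays was left out, with differences of -0.33 to -0.58 for Tnfrsf21 and -0.35 to -0.54 for Tnfrsf4. They were also lost with no filter on dim genes (adjusted p = 0.059 and 0.062) and with the replicate block (0.11 and 0.085).

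Tnfsf13b was called in KO, at 6.29, 6.67 and 6.43 on KO LPM arrays, against 6.09 and 6.13 on KO AM arrays (0.35 ± 0.13, 1.28-fold higher in LPM, adjusted p = 0.047). It was not called without KO AM replicate 1 (0.33) or 2 (0.37), nor without KO LPM replicate 2 (0.25) or 3 (0.37). It was also lost with no filter (adjusted p = 0.068), the olfactory filter (0.052), median centring (0.15), a variance trend (0.059), the compared arrays alone (0.084) and the replicate block (0.051), so 10 of 14 alternatives ended it. The WT arrays overlapped, with 6.53, 6.72 and 6.77 in LPM, against 6.52 and 6.71 in AM (0.06, interval -0.22 to 0.35). Tnfsf11 in WT measured 5.63, 5.86 and 6.19 in LPM, against 6.35 and 6.29 in AM (-0.42, adjusted p = 0.058). It was called lower without WT LPM replicate 3 (-0.57, adjusted p = 0.015).

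**Figure D5:**
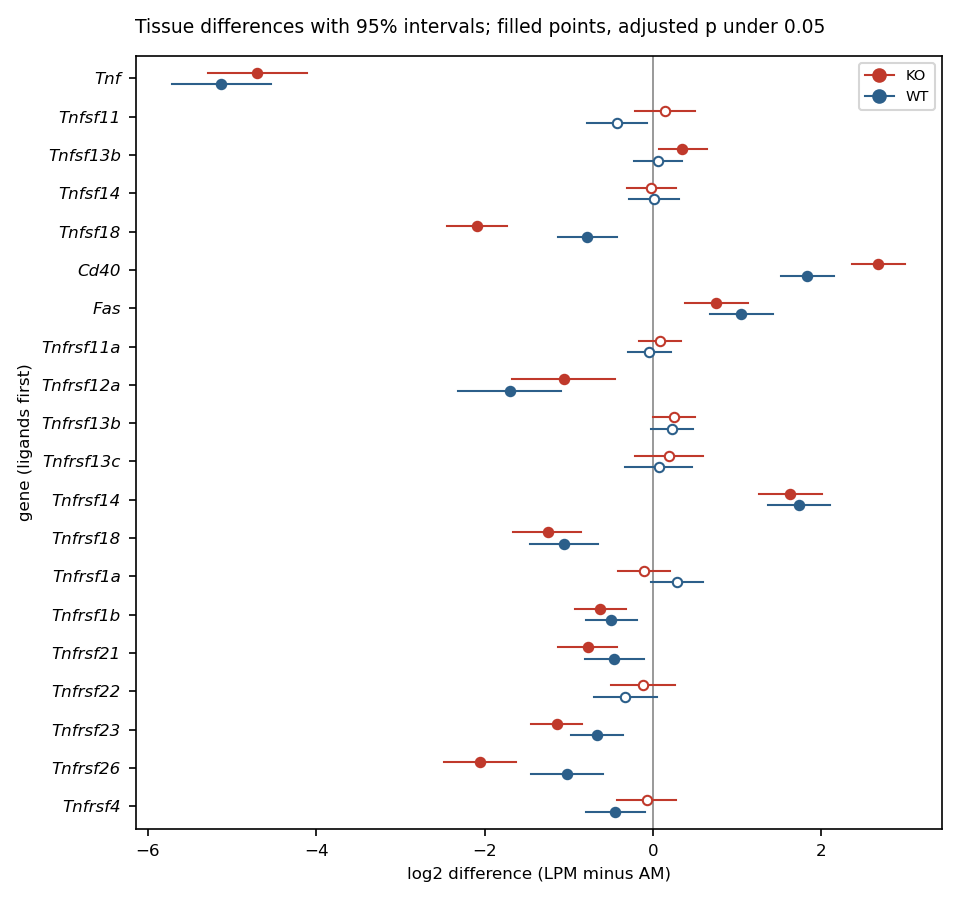
Log2 differences between naive LPM and AM (points) with 95% intervals (lines) in KO (red) and WT (blue) for the 20 tested genes, ligands first; filled points have an adjusted p under 0.05. Tnf lies at -4.70 in KO and -5.13 in WT, Cd40 at 2.68 and 1.83, and Tnfsf18 at -2.09 and -0.78.

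Tnfrsf22, Tnfrsf23 and Tnfrsf26 lie side by side within 78.8 kb of chromosome 7 (GRCm38.p6, positions 143607685 to 143686436), and the first and second of them encode decoys for TRAIL in mouse. They are close relatives, and cross-hybridisation between their probes was not tested. Tnfrsf23 measured 6.2, 6.13 and 6.36 on naive KO LPM arrays, against 7.43 and 7.32 on KO AM arrays (-1.14 ± 0.14, 2.21-fold lower, adjusted p = 7e-06). In WT it measured 6.2, 6.49 and 6.23 in LPM, against 6.89 and 7.04 in AM (-0.66 ± 0.14, 1.58-fold lower, adjusted p = 0.0015). Neither genotype overlapped. Tnfrsf26 measured 5.96, 5.95 and 6.23 on KO LPM arrays, against 8.36 and 7.84 on KO AM arrays (-2.05 ± 0.20, 4.15-fold lower, adjusted p = 4.2e-07). Its WT values were 6.73, 6.84 and 6.51 in LPM, against 7.41 and 8.02 in AM (-1.02 ± 0.20, 2.03-fold lower, adjusted p = 0.00069). Tnfrsf22 was called between LPM and AM in neither genotype (-0.12 in KO, -0.33 in WT).

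On the arrays labelled LysM, against WT, Tnfrsf23 gave 1.41, Tnfrsf22 gave 0.10 (interval -0.31 to 0.52) and Tnfrsf26 gave 0.25 (interval -0.22 to 0.72). In the WT response to IL-4c the differences were -0.08 for Tnfrsf22, -0.83 for Tnfrsf23 and -0.41 for Tnfrsf26, and the second of these was called. Whether the 3 genes differ from each other was not tested. Other runs of family genes hold fewer detected members. Tnf lies between Ltb and Lta within 11.1 kb of chromosome 17 (35194507 to 35205578), and of these Tnf alone was tested. Tnfsf18 lies with Tnfsf4 and Fasl in 393 kb of chromosome 1 (161395438 to 161788495), and Tnfsf14 with Tnfsf9 and Cd70 in 88.9 kb of chromosome 17 (57105287 to 57194181); in each of these runs the other genes were not tested. Tnfrsf4 and Tnfrsf18, within 15.3 kb of chromosome 4, were both tested.

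Whether the genotype difference was the same in the 2 tissues was tested by an interaction term, which called 1 of the 20 genes, lower, against 0.249% of all tested genes (0.0774% higher, 0.172% lower). Tnfsf18 differed between KO and WT by 0.12 (interval -0.20 to 0.44) in LPM, against 1.43 in AM, and the interaction was -1.31 ± 0.24 (adjusted p = 0.029). This gene passed the filter through the KO AM arrays alone. Its WT AM and naive LPM values, 3.09 to 4.12, lay below the background level of 4.48. The LPM difference therefore lies within background, and the interaction adds little to the AM difference. The call was lost without any 1 of 7 of the 10 arrays: AM WT replicate 1 (-1.41) or 2 (-1.20), AM KO replicate 2 (-1.01), LPM WT replicate 1 (-1.18), and LPM KO replicate 1 (-1.25), 2 (-1.36) or 3 (-1.31). An unadjusted p under 0.05 was found for 5 members. For Cd40 the difference between KO and WT was 0.49 in LPM and -0.36 in AM, neither of them called (interaction 0.85, interval 0.41 to 1.29, adjusted p = 0.12). For Tnfrsf26 the interaction was -1.03 (interval -1.64 to -0.42, adjusted p = 0.16).

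Genes of the surrounding pathway were taken from lists of superfamily genes outside the naming rule, receptor adaptors, death signalling, NF-kB and control of TNF mRNA. None of their tested genes was called by limma in KO against WT in naive AM or naive LPM. Few genes of any kind were called there, 0.12% of all tested genes in AM and 1.88% in naive LPM. After IL-4c, Ltbr, the lymphotoxin beta receptor that binds LIGHT, rose in both genotypes, and it was the only 1 of 3 tested superfamily genes outside the rule to do so. It measured 7.84 and 7.37 in KO after IL-4c, against 6.42, 6.44 and 6.63 in naive KO LPM (1.11 ± 0.15, adjusted p = 6.5e-05), and 7.29 and 7.34 in WT, against 6.75, 6.38 and 6.8 in naive WT LPM (0.67 ± 0.15, adjusted p = 0.0025). Its ligand gene Tnfsf14 was called higher in both genotypes too, but from naive values below 4.48 and after passing the filter through IL-4c arrays alone. In WT all its values lay below the array medians, and 7 of 14 alternatives lost the call.

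Of all tested genes, 21.9% were called higher and 15.4% lower after IL-4c in KO, and 22% and 19.2% in WT. The counts for the lists after IL-4c, here and below, stand beside these shares. Of 8 tested TRAF and adaptor genes, 2 fell in KO and 3 in WT after IL-4c and none rose. Birc2 and Birc3, ubiquitin ligases that favour survival downstream of TNF receptors, fell in both: Birc2 by 0.62 in KO and 0.77 in WT, and Birc3 by 0.57 in KO and 1.05 in WT. Of 6 death signalling genes, 1 rose and 2 fell in KO, and 2 rose and 3 fell in WT. Cflar, an inhibitor of caspase-8, fell by 0.60 ± 0.14 in KO (adjusted p = 0.0041) and by 1.19 ± 0.14 in WT (adjusted p = 8.6e-06), whereas Ripk3, the kinase of necroptosis, rose by 1.29 ± 0.18 in KO (adjusted p = 5e-05) and by 1.17 ± 0.18 in WT (adjusted p = 7.2e-05). Cflar was higher in KO than in WT after IL-4c (0.72 ± 0.16, adjusted p = 0.018).

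Of 17 NF-kB feedback and target genes, 4 rose and 6 fell in KO, and 4 rose and 8 fell in WT. Among them, Cxcl2 fell by 3.67 ± 0.44 in KO (adjusted p = 1.5e-05) and 4.52 ± 0.44 in WT (adjusted p = 1.2e-06), and the chemokine gene Ccl3 fell by 3.30 ± 0.57 in KO (adjusted p = 0.00036) and 4.52 ± 0.57 in WT (adjusted p = 1.4e-05). The NF-kB target Il6 rose in both genotypes instead, with 6.03 and 6.64 in KO after IL-4c, against 5.12, 4.65 and 5.27 in naive KO LPM, and 7.35 and 7.42 in WT, against 5.3, 5.53 and 5.07 in naive WT LPM. After IL-4c Il6 was lower in KO than in WT (-1.05 ± 0.26, adjusted p = 0.036), and it was lower on arrays labelled LysM (5.42 and 6.02) than on WT arrays too (-1.67 ± 0.26, adjusted p = 0.0011). In that KO comparison 2 of the 17 were called higher (Nfkbiz and Icam1) and 1 lower (Il6), beside 2.12% and 1.5% of all tested genes. On arrays labelled LysM 3 were called higher (Nfkbiz, Ccl3 and Ccl4) and 2 lower (Cyld and Il6), beside 4.8% and 3.87%. Ccl3 measured 8.01 and 5.4 there, against 4.94 and 3.96 on IL-4c WT arrays. In the response to IL-4c, of 10 NF-kB subunit and kinase genes, Nfkb2 was the 1 called in KO (0.57 ± 0.14, adjusted p = 0.0051), and Nfkb2 rose while Rel, Tab2 and Ikbkb fell in WT.

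Among 9 tested genes of TNF shedding and mRNA control, Zfp36, which encodes the protein that destabilises Tnf mRNA, was called in both comparisons with WT after IL-4c. It measured 9.96 and 9.51 on IL-4c KO arrays and 9.98 and 9.7 on arrays labelled LysM, against 8.91 and 9.02 on IL-4c WT arrays. KO exceeded WT by 0.77 ± 0.15 (adjusted p = 0.01) and the arrays labelled LysM exceeded WT by 0.88 ± 0.15 (adjusted p = 0.0024). Against naive LPM, Zfp36 was called lower after IL-4c in both genotypes, from 10.5, 10.41 and 10.59 on naive KO arrays and 10.91, 10.88 and 10.85 on naive WT arrays. Of the 9 genes, 2 rose and 2 fell after IL-4c in KO, and 3 rose and 3 fell in WT. Zfp36l1 was called lower in WT only, and the NF-kB regulator Nfkbiz was called lower in both. The response of Zfp36 to IL-4c differed between KO and WT (interaction 1.15 ± 0.20, adjusted p = 0.013). So did those of Zfp36l1 (1.28 ± 0.25, adjusted p = 0.027) and Nfkbiz (1.13 ± 0.24, adjusted p = 0.043). The immediate early genes called in this interaction were 3 of 12 (Jun, Ier3 and Dusp1), and their part in it was not tested. Tnf itself overlapped between KO and WT after IL-4c (0.01, interval -0.62 to 0.65).

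Between LPM and AM, 17.3% of all tested genes were called higher and 22.8% lower in KO, and 21.2% and 17.1% in WT. The counts below stand beside these shares. NF-kB feedback and target genes were called in both directions, 4 of 17 higher and 7 lower in KO, and 4 higher and 5 lower in WT. Nfkbia, Nfkbiz, Bcl3 and Cxcl1 were higher in LPM in both genotypes. Il1b, another inflammatory cytokine, was lower, with differences of -5.74 ± 0.17 in KO (adjusted p = 1.7e-13) and -5.26 ± 0.17 in WT (adjusted p = 4.1e-13). Tnfaip3, which encodes the feedback inhibitor A20, was lower, with differences of -3.34 ± 0.20 in KO (adjusted p = 9.4e-10) and -2.49 ± 0.20 in WT (adjusted p = 3.8e-08). The subunit gene Rel was lower, with differences of -2.09 ± 0.14 in KO (adjusted p = 2.7e-09) and -1.96 ± 0.14 in WT (adjusted p = 6.3e-09). Of the 10 subunit and kinase genes, 0 were higher and 2 lower in KO, and 1 was higher and 2 lower in WT. Of 9 shedding and mRNA control genes 1 was higher and 3 lower in each genotype: Zfp36l1 was 1.45 ± 0.18 higher in KO and 2.57 ± 0.18 higher in WT, and Adam17, the protease that sheds TNF, measured 7.91, 8.02 and 8.09 on KO LPM arrays, against 8.89 and 8.72 on KO AM arrays, and 8.07, 8.11 and 8.08 on WT LPM arrays, against 8.55 and 8.88 on WT AM arrays. Of 6 death signalling genes 4 were higher and 0 lower in LPM in KO, and 4 were higher and 1 (Casp8) lower in WT. Mlkl, the executor of necroptosis, was higher by 1.27 ± 0.15 in KO and 1.33 ± 0.15 in WT.

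Lists of markers of other cell types also differed between the tissues. Epithelial markers averaged 3.97, 3.94 and 3.76 on KO LPM arrays, against 6.56 and 6.27 on KO AM arrays, and 3.67, 3.8 and 4 on WT LPM arrays, against 5.88 and 6.75 on WT AM arrays, with 4 of 5 called lower in each genotype. Cdh1, 1 of these, was also called higher after IL-4c in both genotypes, where Epcam was called in neither. Neutrophil markers averaged 3.96 to 4.06 on the LPM arrays, against 4.78 to 4.86 on the AM arrays, with 3 of 4 tested markers called lower in KO and 2 of 4 (Cxcr2 and Mmp8) in WT. S100a8 was not called, at 7.25, 7.28 and 7.77 on KO LPM arrays, against 7.62 and 7.64 on KO AM arrays, and 7.67, 7.51 and 7.71 on WT LPM arrays, against 7.88 and 7.77 on WT AM arrays. Whether other cells contributed to these signals, and to the differences between LPM and AM, was not tested.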

How the data were processed

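RNA from sorted macrophages was measured on 16 Affymetrix arrays. The deposited values are log2 signals made by the authors with RMA, per the submitters' processing notes; values ran from 1.04 to 13.84 and array medians from 4.79 to 4.93. The number of arrays limits the precision. There were 30177 probe sets, of which 21789 carried a single gene symbol, 1621 carried more than 1 and 6767 were unnamed; 1 probe set with several family symbols was not analysed here. The probe set with the highest mean stood for a gene. Genes above the array median on at least 2 arrays were tested, 11634 in all (8304 were not). limma 3.58.1 in R 4.3.3 fitted the means of the 7 groups (9 residual degrees of freedom) and moderated the variances, and p-values were adjusted by Benjamini-Hochberg over all tested genes in each comparison. The steps were tested on simulated data. By rule, each called member was given with its values on every array compared, uncalled members by counts, and from each pathway list up to 3 called genes with the largest absolute difference. The uncalled members described singly, Il6 and Nfkb2 in the IL-4c responses and the printed promoters were chosen after their values were seen. The members and lists were chosen with earlier results of these data known. Figures were drawn with matplotlib 3.10.9 in Python 3.11.15. Alternatives changed the filter, normalization, variance model, arrays fitted, weights, replicate block and each array in turn.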

Additional observations from a re-analysis of the deposited data

Results flagged for a closer look

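Tnfsf18, the gene of the GITR ligand, was picked out because its difference between KO and WT differed between the tissues by the interaction term. KO minus WT was 0.12 in naive LPM, against 1.43 in naive AM, and the interaction was -1.31 (95% interval -1.81 to -0.80, limma adjusted p = 0.029). It measured 5.16 and 5.74 on KO AM arrays, against 4.12 and 3.92 on WT AM arrays, and stayed at 3.56 or below on all 12 LPM arrays, below the array medians. All its values but those on the KO AM arrays lay below 4.48, the background level set from probe sets for olfactory receptors. The gene passed the filter on dim signals through the KO AM arrays alone.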

How the results depend on the processing

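Of 42 called differences, 25 were called under every alternative, 17 were lost under at least 1 and 0 reversed. With only the arrays of the groups compared, calls went to 0 for KO against WT in AM, 1 for KO against WT in naive LPM and 1 for LysM against WT. Over all tested genes the calls there went from 14 to 10, from 219 to 233 and from 1009 to 150. Array weights also gave 1 for naive LPM and 1 for LysM against WT, where calls over all tested genes went from 219 to 419 and from 1009 to 780. Quantile normalization applied again gave 1 for naive LPM, 1 for KO against LysM and 9 for IL-4c in KO. Over all tested genes the calls there went from 219 to 180, from 2 to 3 and from 4342 to 4522. A variance trend gave 1 for KO against LysM, where calls over all tested genes went from 2 to 8. With the replicate block, KO against WT after IL-4c gave 1 call (Tnfsf13b), where calls over all tested genes went from 422 to 375. The genotype by tissue interaction gave 0, where those calls went from 29 to 26. The deviations of same-numbered arrays correlated at 0.115 to 0.21 between the IL-4c groups, which have 2 pairs each. In the other comparisons they correlated at -0.139 to 0.066. The labels and data therefore do not settle a pairing, and not every naive LPM array correlated best with its own number. Leaving out each array in turn, called members numbered 1 to 1 in KO against WT in AM, 0 to 0 in naive LPM and 0 to 1 after IL-4c, 1 to 3 in LysM against WT, 0 to 1 in KO against LysM, 6 to 7 for IL-4c in WT, 2 to 7 for IL-4c in KO, 9 to 11 for LPM against AM in WT and 10 to 12 in KO, 0 to 0 for genotype by IL-4c and 0 to 1 for genotype by tissue. Calls over all tested genes moved too: for KO against WT in naive LPM they fell from 219 to between 75 and 163. The cause was not tested. Signals near the array median (Tnf in LPM, Tnfsf14, Tnfsf18) limit what their folds show.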

Other observations

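Without the filter on dim signals, none of the 18 untested members was called between genotypes by limma, and a few were called elsewhere, at group means below the array medians; on single arrays Tnfsf9 reached 4.94 in naive WT LPM and Tnfrsf17 4.86 on an IL-4c array labelled LysM. Tnfsf9 (the 4-1BB ligand) averaged 4.26 in KO LPM, against 3.15 in KO AM (1.12 ± 0.31 SE, adjusted p = 0.013), and 4.33 in WT LPM, against 3.41 in WT AM (0.92 ± 0.31, adjusted p = 0.042). Tnfsf8 averaged 3.56 in KO LPM, where the arrays gave 3.25, 4.19 and 3.24, against 2.71 in KO AM (0.85 ± 0.22, adjusted p = 0.0067). Tnfsf10 (TRAIL) averaged 4.08 in KO LPM, against 3.59 in KO AM (0.49 ± 0.17, adjusted p = 0.041). Cd27 averaged 4.63 in WT LPM, against 4.07 in WT AM (0.56 ± 0.17, adjusted p = 0.024). After IL-4c, the mouse TRAIL receptor gene Tnfrsf10b averaged 3.94, against 3.26 in naive KO LPM (0.68 ± 0.18, adjusted p = 0.01). In WT, Tnfrsf17 averaged 4.31 after IL-4c, against 3.73 in naive LPM (0.58 ± 0.19, adjusted p = 0.029), and Cd40lg 3.54, against 3.2 (0.34 ± 0.11, adjusted p = 0.036). All group means in this paragraph but that of Cd27 in WT LPM lay below the background level of 4.48. The sizes of these differences are therefore not measured changes.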
